A study of Homo sapiens with 5 samples.

Results

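The HOX genes of the deposited expression table were examined in H9 cells, an established human embryonic stem cell (hESC) line, after editing of CFIm25. Members were taken by name: every row whose gene name starts with HOXA, HOXB, HOXC or HOXD, together with the cluster transcripts HOTAIR, HOTAIRM1 and HOTTIP. This rule found 5 of the 33857 listed genes, namely HOXB2, HOXC4, HOXC10, HOXC13 and HOXD13, each protein-coding. RefSeq names 39 coding HOX genes in the human genome, and the other members of the 4 clusters, like the 3 cluster transcripts named in the rule, were not analysed here.

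The libraries were made from poly(A+) RNA, 2 of them from mock control cells and 3 from CFIm25-m cells. Mock control cells were clones that had received the empty episomal CRISPR/Cas9 vector (eCRISPR), and CFIm25-m cells were clones edited with guides near the start codon of NUDT21, the gene of CFIm25. Transfected cultures were selected on puromycin before single-cell clones were picked, and the cells were kept in mTeSR medium. The labels call the edited samples knockouts, whereas the study describes clones that kept a small amount of shortened CFIm25 protein, with 2 mock control and 3 edited clones. The labels name the other samples control cells and do not mention the empty vector, which is taken from the study. They do not tie a sample to a clone, so p-values measure the spread between these samples.

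HOX genes encode homeodomain transcription factors that give cells their position along the body axis. In mammals they lie in 4 clusters, HOXA to HOXD, and genes at the same place in different clusters form 13 paralogue groups, the low numbers acting towards the head and the high numbers towards the tail and the limb ends. In pluripotent cells the clusters are known as CpG-rich chromatin held silent by Polycomb complexes, and retinoic acid, WNT signals and CDX factors open them during differentiation. HOX proteins bind DNA together with cofactors of the TALE class, the PBX, MEIS and PKNOX proteins.

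The 5 libraries held 18754108 to 23372391 reads over the listed genes. NUDT21 checked the labels: it stood at 6503 and 6398 normalized counts in mock control and at 4035, 3281 and 3400 in CFIm25-m (log2 fold change -0.86 ± 0.11 SE, limma-trend adjusted p = 0.00431, n = 2 and 3). The 10 embryonic stem cell markers examined, POU5F1, SOX2 and NANOG among them, all passed the filter on low values. The number called different was 0 by limma-trend, 0 by edgeR and 1 (SALL4) by DESeq2, against 1.88%, 1.81% and 3.70% of all genes with an adjusted p. The unadjusted limma-trend p was under 0.05 for 3 of them, against 15.1% of all 19232 tested genes. Their summed normalized count ran from 247243 to 251102 in the mock control samples and from 226152 to 229704 in the CFIm25-m samples. DNMT3B (mean 56650 in mock control, 45180 in CFIm25-m) and LIN28A (56465 and 43124) carried this difference. POU5F1 lay the other way (30814 and 35620), and of the 10 markers 7 were lower and 3 higher in CFIm25-m. Markers of other cell types were mixed. The endoderm genes SOX17 and FOXA2 and the neural gene NEUROG2 were at most at 1.15 normalized counts in a sample, whereas the neural crest genes FOXD3 (486 to 571) and SOX10 (91.2 to 134), the trophoblast gene KRT7 (146 to 266), the neural gene DLL1 (240 to 299), the mesoderm gene KDR (2608 to 3635) and the fibroblast genes COL1A1 (5749 to 8705) and COL1A2 (1107 to 1493) stood higher. Other members of the same lists stayed low. The mesoderm genes TBXT and MESP1 reached at most 8.07 normalized counts in a sample, the trophoblast gene TFAP2A 7.72 and the fibroblast genes LUM and DCN 2.31. The filter was passed by 2 of 6 listed neuroectoderm markers, 4 of 4 neural crest, 3 of 5 mesoderm and 2 of 6 endoderm markers. It was also passed by 1 of 5 trophoblast or amnion and 2 of 6 fibroblast markers, 14 of 32 in all. Of these 14 markers, 0 were called by limma-trend, 0 by edgeR and 1 (COL1A1) by DESeq2, and 3 had an unadjusted limma-trend p under 0.05.

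Promoter sequence was at hand for HOXC4 and HOXD13, 2 of the 5 members, and is shown for these because the other members had none in the source used. Each line gives the 250 bases before a start site in the RefSeq promoter table, on the plus strand (GRCh38.p14), with every CpG in capitals. The start used for HOXD13 lies inside the bounds of its RefSeq gene, which begins upstream at position 176087487 of chromosome 2. HOXC4 lies at chr12:54016638-54016887 and HOXD13 at chr2:176092471-176092720.
HOXC4: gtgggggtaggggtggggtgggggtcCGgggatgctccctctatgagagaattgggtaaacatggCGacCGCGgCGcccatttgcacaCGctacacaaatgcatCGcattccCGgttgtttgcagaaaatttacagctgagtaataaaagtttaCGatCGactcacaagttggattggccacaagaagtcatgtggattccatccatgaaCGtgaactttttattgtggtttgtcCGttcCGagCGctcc
HOXD13: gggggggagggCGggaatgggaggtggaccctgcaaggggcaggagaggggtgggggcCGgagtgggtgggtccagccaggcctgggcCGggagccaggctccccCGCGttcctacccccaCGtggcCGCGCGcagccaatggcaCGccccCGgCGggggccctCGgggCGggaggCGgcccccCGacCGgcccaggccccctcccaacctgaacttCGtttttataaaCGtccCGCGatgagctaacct
The HOXD13 window held 21 CpGs and 74.0% G and C, and the HOXC4 window held 14 CpGs and 50.8% G and C. The median was 11 CpGs over all 35116 promoter windows of the RefSeq table and 19 over the 27 windows of its 20 coding HOX genes. The HOXC4 start is also that of HOXC5 in this table. Neither window held the composite PBX-HOX site TGATNNAT or the MEIS and PKNOX site TGACAG on either strand, letters found in 6.47% and 13.03% of all windows.

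The 5 HOX genes were near silent in both groups. Dividing each deposited value by the smallest positive value of its library gave whole reads throughout the table, so the members could be counted read by read: of the 25 pairs of a member and a library, 13 held no read, 7 held 1 read, 2 held 2 reads and 3 held 3 reads. No member passed the filter of 10 normalized counts in at least 2 samples, so none entered the main test, and none had more than 3 reads in any library. A fold change between groups was therefore not given for a single member, since each stayed at or under the floor of 3 reads in every library, which is 2.70 to 3.46 normalized counts depending on the library. In bulk RNA, fewer cells that express a gene and less RNA per cell cannot be told apart.

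**Figure D1:**
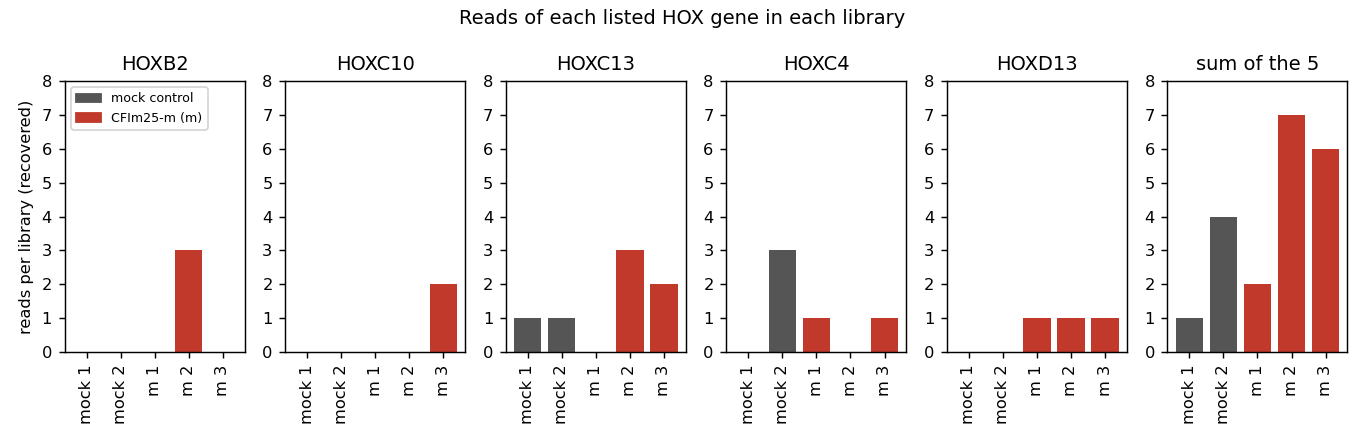
Reads of each listed HOX gene in each of the 5 libraries, and their sum, with the library on the x axis, the number of reads on the y axis, mock control in grey and CFIm25-m in red. No bar of a single gene rises above 3 reads, and the sums are 1 and 4 reads in mock control and 2, 7 and 6 reads in CFIm25-m.

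HOXB2, a group 2 gene that patterns the hindbrain (chr17:48540894-48544989, minus strand, hg38), had 0 and 0 reads in the mock control samples and 0, 3 and 0 in the CFIm25-m samples. Its 3 reads, 2.70 normalized counts, all came from CFIm25-m replicate 2. Without that library no read of HOXB2, the only listed HOXB gene, remained. The antisense gene HOXB-AS1 overlaps HOXB2 in RefSeq.

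HOXC4, a group 4 gene of the anterior trunk (chr12:54016931-54056030, plus strand), had 0 and 3 reads in the mock control samples and 1, 0 and 1 in the CFIm25-m samples. Its highest value, 2.90 normalized counts, was that of mock control replicate 2, and the groups overlapped. The annotated span of HOXC4 overlaps HOXC5, HOXC6 and 2 smaller RefSeq genes, and the counting rule for shared exons and strand is not given in the sources used here, so these 5 reads could belong in part to the neighbours.

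HOXC10, a group 10 gene of the hindlimb and lumbar region (chr12:53985065-53990279, plus strand), had no read in 4 libraries and 2 reads in CFIm25-m replicate 3. It was the lowest member per length, and the antisense gene HOXC-AS3 overlaps it in RefSeq.

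HOXC13, a group 13 gene of hair, nail and tail (chr12:53938765-53946544, plus strand), was the highest member. It had 1 and 1 reads in the mock control samples and 0, 3 and 2 in the CFIm25-m samples, or 1.06 ± 0.13 against 1.54 ± 1.39 normalized counts (mean ± SD, n = 2 and 3). The range of the CFIm25-m samples enclosed both controls, and reads of the overlapping antisense gene HOXC13-AS cannot be told apart without strand.

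HOXD13, a group 13 gene of digits and the urogenital tract (chr2:176092891-176095938, plus strand), had 0 and 0 reads in the mock control samples and 1, 1 and 1 in the CFIm25-m samples. It was the single member whose groups did not overlap. The same 0 and 0 against 1, 1 and 1 was seen in 54 of the 1545 listed genes with 3 reads in all (3.50%), so the pattern is one that many sparse genes shared. No other RefSeq gene overlaps HOXD13.

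Pooled over libraries, counting error was wide for each member. The 0 reads of HOXB2, HOXC10 or HOXD13 in the mock control libraries allowed up to 0.895 reads per 10000000 (exact 95% Poisson interval), and the 3 reads of HOXD13 in the CFIm25-m libraries gave 0.461 reads per 10000000 with an interval from 0.0952 to 1.35. For HOXC13 the rates were 0.485 (0.0588 to 1.75) in mock control and 0.769 (0.25 to 1.79) in CFIm25-m. The intervals of the groups overlapped for each of the 5 members, and they cover counting error alone.

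When the filter was dropped, all 5 members could be fitted with the other genes and none was called. Adjusted p ran from 0.588 (HOXD13) to 0.967 (HOXC13) with limma-trend, where 0.948% of 33857 genes were called in either direction. With edgeR's quasi-likelihood test on the recovered reads it ran from 0.68 to 0.938, against 1.92% of genes called. DESeq2 gave the 5 members no adjusted p, while 3.31% of the 17447 genes with one were called. The unadjusted p was under 0.05 for 0 of the 5 members by each of the 3 tools. Differences of a few reads were not detectable at this depth.

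Summed over members, the libraries held 1 and 4 HOX reads in mock control and 2, 7 and 6 in CFIm25-m, so the samples overlapped. This is 5 reads, 1.21 per 10000000 (0.394 to 2.83), against 15 reads, 2.31 per 10000000 (1.29 to 3.81). The ratio of the pooled rates was 1.90, with an exact 95% counting interval from 0.657 to 6.69 that includes equal rates and leaves out the spread between samples. The other 1141 protein-coding genes that never passed 3 reads had a ratio of 1.00 (0.948 to 1.06), at 434 to 507 reads per 10000000 in each library. CFIm25-m replicates 2 and 3 had the most HOX reads, and CFIm25-m replicate 1 lay between the controls.

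By cluster, HOXC, with 3 listed members, held 14 of the 20 HOX reads, and HOXB and HOXD, with 1 each, held 3 each. HOXA had no listed member, so these sums do not cover whole clusters. The HOXC sum was 1.15 and 3.86 normalized counts in mock control and 1.00, 2.70 and 4.81 in CFIm25-m, a mean of 2.51 ± 1.91 against 2.84 ± 1.91 (SD), with full overlap. The direction of this small difference turned when mock control replicate 1 or CFIm25-m replicate 3 was left out. By position, the 2 members of paralogue groups 1 to 4 had 3 reads in mock control and 5 in CFIm25-m. The 3 members of groups 9 to 13 had 2 and 10. These totals are not scaled to depth, which was 41220473 reads over the 2 mock control libraries and 65010167 over the 3 CFIm25-m libraries. The samples overlapped for both sets. For groups 9 to 13, CFIm25-m replicate 1 held 1 read (HOXD13), as did each control (HOXC13). A difference by position was not tested. No member of groups 5 to 8 was listed.

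Levels between genes were compared as reads per kilobase of the deposited gene length and per 1000000 reads (RPKM), computed from the recovered reads over the 5 libraries together. On this scale HOXC13 stood at 0.0272, HOXC4 at 0.0173, HOXD13 at 0.0126, HOXB2 at 0.0121 and HOXC10 at 0.00808. The counting intervals of neighbours in this order overlapped, and the highest upper bound, that of HOXC13, was 0.056. The members fell between percentiles 1.59 and 6.46 of the 17558 listed protein-coding genes, and 6.53% of those genes also had at most 3 reads in every library.

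The flanking genes past the filter stood higher than the HOX genes. For each cluster the 5 nearest protein-coding genes past the filter were taken on each side of its RefSeq bounds, 40 genes in all, the nearest being TTLL6, 33.5 kb from HOXB. Many are not immediate neighbours: the farthest lay 1753 kb from HOXA, 579 kb from HOXB, 432 kb from HOXC and 1405 kb from HOXD. Their level ran from 0.169 (CREB5, on the HOXA side) to 619 (HNRNPA1, on the HOXC side) RPKM, with a median of 6.64, and the lowest was 6.23 times the highest member. They had to pass the filter that no member passed, so this gap follows in part from how they were taken. On the way 3 listed protein-coding genes were passed over, all on the HOXB side: SKAP1 (2.31 to 7.72 normalized counts), COPZ2 (2.70 to 6.92) and PRR15L (2.90 to 8.10). Members of the same gene families flank several clusters. CBX3, CBX1 and CBX5, which encode the HP1 proteins of heterochromatin, stood at 31.2 to 64.4 RPKM. HNRNPA2B1, HNRNPA1 and HNRNPA3 stood at 139 to 619, and ATP5MC1, ATP5MC2 and ATP5MC3 at 25.2 to 41.6. The NFE2 family, found at 4 clusters, was spread from 0.454 to 42.9. Pairs at 2 clusters were lower, with SNX at 3.84 to 6.29, ATF at 2.13 to 6.99 and CALCOCO at 1.89 to 2.08. Of the 40 flanking genes, 35 were at 1 RPKM or more.

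**Figure D2:**
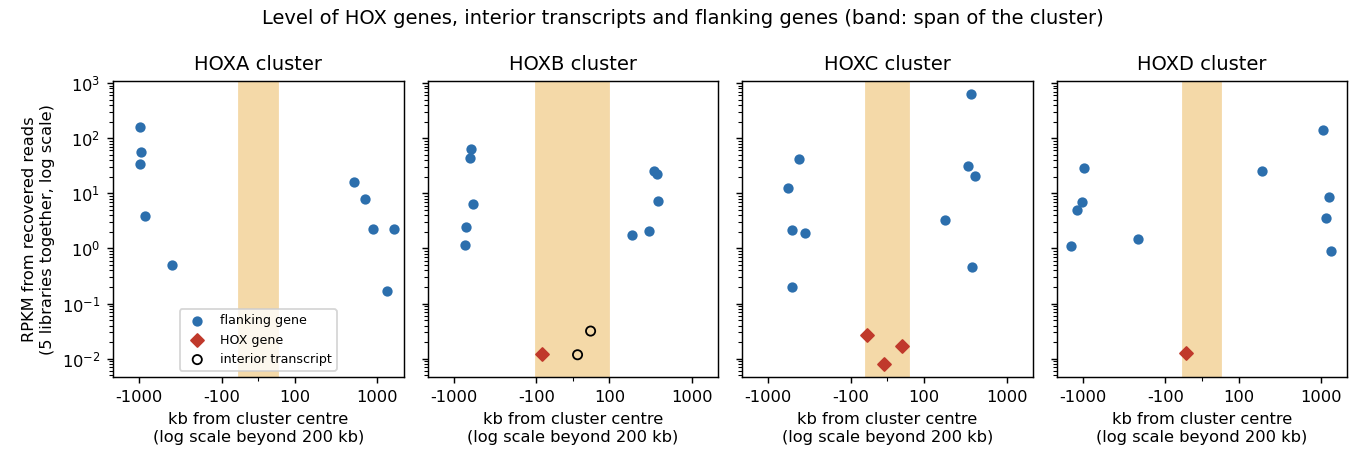
Level of listed HOX genes (red diamonds), transcripts inside a cluster (open circles) and flanking genes (blue) against the distance of each gene's middle from the cluster centre in kb (linear within 200 kb, log beyond), with RPKM on a log y axis and the span of the cluster shaded. HOXA has no listed member. The 5 HOX genes lie between 0.00808 and 0.0272 RPKM, and the 40 flanking genes between 0.169 and 619.

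Inside the clusters, the table listed 2 further transcripts, both in HOXB. LINC02086, a long noncoding RNA gene (chr17:48646923-48707346, plus strand), had 1 and 2 reads in mock control and 0, 5 and 5 in CFIm25-m. AC103702.2 had 2 reads, both in CFIm25-m replicate 3. As with the HOX genes, the reads of LINC02086 were most in CFIm25-m replicates 2 and 3, and the groups overlapped.

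Of the 40 flanking genes 0 were called by limma-trend, against 1.88% of the 19232 tested genes in either direction (180 lower and 181 higher, or 147 lower and 240 higher when each library was scaled to its total). None was called by edgeR, against 1.81% of genes, and 2 (TTLL6 and CDK5RAP3, both higher) by DESeq2, against 3.70%. At an unadjusted limma-trend p under 0.05 there were 8 of the 40, against 15.1% of all tested genes. Of the 40, 22 were lower and 18 higher in CFIm25-m. Their median log2 fold change was -0.03, against -0.01 over all tested genes. The genes of highest level held close values, HNRNPA1 at 67091 and 66463 normalized counts in mock control and 71393, 69239 and 57644 in CFIm25-m. TTLL6, a tubulin polyglutamylase gene next to HOXB, had 137 and 118 normalized counts in mock control and 206, 177 and 292 in CFIm25-m, with adjusted p = 0.114 in limma-trend. It was singled out after its values were seen, as the nearest flanking gene.

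Among the genes that the deposited annotation files as homeobox, the HOX members stood near the bottom. Genes that it does not place in this family, such as POU5F1 (556 RPKM), are not counted here. The deposited annotation puts 127 further genes in the homeobox family, and 101 of them were above HOXC13 per length. The HOX members held ranks 102, 113, 120, 121 and 126 of 132. At the top were PBX2 (46.3 RPKM), ADNP (21.2), CERS4 (21.1) and TGIF1 (20.8). Of the 127, 63 passed the filter, whereas 28 never passed 3 reads. The filter thus removed about as many as it passed in this family, and it removed the 5 HOX genes.

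**Figure D3:**
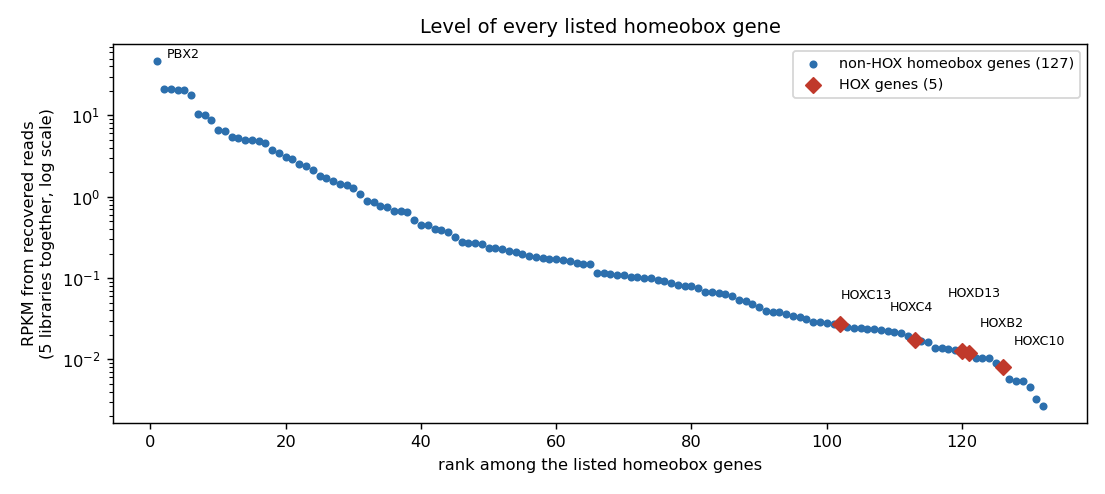
Level of the 132 listed homeobox genes, a set taken by the deposited annotation that leaves out POU5F1, in RPKM over the 5 libraries (log y axis) against their rank. The 5 HOX genes (red diamonds) hold ranks 102 to 126, far below PBX2, the highest of this set, at 46.3.

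In this family 2 of 63 tested genes were called, 3.17% against the 1.88% of all tested genes. EMX1, a forebrain homeobox gene, was 137 and 146 normalized counts in mock control and 311, 483 and 285 in CFIm25-m (log2 fold change 1.30 ± 0.21 SE, adjusted p = 0.016, limma-trend). The other was MEIS3, a TALE cofactor described next, and edgeR also called MSX2, which falls outside the naming rule. Both calls were lost when either control or CFIm25-m replicate 1 was left out (adjusted p 0.0738 to 0.0936 for EMX1).

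The TALE cofactors of HOX proteins were largely present. Of 9 genes, 7 passed the filter and 1 was called, or 14.3% against 1.88% of all tested genes, with a median log2 fold change of -0.03. PBX2 had 4458 and 4588 normalized counts in mock control and 4441, 4190 and 3532 in CFIm25-m, and PBX3 had 629 and 572 against 653, 632 and 563. Neither was called. MEIS3 fell: it had 1246 and 1337 normalized counts in mock control and 736, 888 and 622 in CFIm25-m (log2 fold change -0.80 ± 0.14 SE, adjusted p = 0.023, limma-trend). Each CFIm25-m sample was below both controls. The call was lost on leaving out either control or CFIm25-m replicate 1 (adjusted p 0.112 to 0.199). MEIS1 and MEIS2, close relatives that also act with HOX proteins, did not pass the filter and are named after their values were seen. MEIS1 was at 0 and 0 normalized counts in mock control and at 1.00, 5.40 and 4.81 in CFIm25-m, and MEIS2 at 5.76 and 8.69 against 3.01, 6.30 and 1.92.

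Retinoic acid, the classical inducer of HOX genes, acts through RAR and RXR receptors, and its level is set by enzymes that make it, such as RDH10 and the ALDH1A family, and by CYP26 enzymes that break it down. Of 17 listed genes of this pathway 15 passed the filter and 1 was called, or 6.67% against 1.88% of all tested genes, with a median log2 fold change of -0.02. DHRS3, which returns retinaldehyde to retinol, fell from 569 and 560 normalized counts in mock control to 362, 331 and 218 in CFIm25-m (log2 fold change -0.92 ± 0.20 SE, adjusted p = 0.0479, limma-trend). This value sits at the threshold: adjusted p was 0.0504 without the filter, 0.0555 with scaling to the library total, and 0.0829 to 0.277 when either control or CFIm25-m replicate 1 or 2 was left out.

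By mean normalized count, not corrected for gene length, the highest genes of the pathway were CRABP2, RXRA, RARG and CRABP1. Per kilobase the order differed, and RXRB, named after its values were seen, stood at 7.69 RPKM against 6.29 for RXRA. CRABP2, which carries retinoic acid to the nucleus, had 2000 and 2091 normalized counts in mock control and 1507, 1227 and 592 in CFIm25-m, but the spread between the CFIm25-m samples was wide and it was not called (log2 fold change -0.99 ± 0.30, adjusted p = 0.16, limma-trend). It passed the threshold without CFIm25-m replicate 3 (adjusted p = 0.00696) and in edgeR without the filter (0.0257). The receptors RXRA (1574 and 1565 against 1415, 1494 and 1300) and RARG (1108 and 1224 against 1078, 1098 and 892) were not called either, nor was CRABP1. STRA6 and RDH10, named after their values were seen, were the remaining genes of the 4 in the pathway with an unadjusted p under 0.05 (15.1% of all tested genes had one) and had positive log2 fold changes of 0.69 and 0.52, with adjusted p of 0.214 and 0.249 in limma-trend.

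The nearest homeobox relatives of the HOX genes are the CDX, ParaHox and EVX genes. Those listed were CDX1, CDX2, CDX4 and GSX1, and no EVX gene was. They ran from 0.00457 (CDX2) to 0.665 (CDX4) RPKM, and CDX4 and GSX1 (0.272) stood above every HOX member. Of 8 such genes 4 were listed, 2 passed the filter and 0 were called by limma-trend, edgeR or DESeq2, with 1 (CDX4) at an unadjusted p under 0.05. CDX4, which activates HOX genes in the posterior embryo, had 34.6 and 41.5 normalized counts in mock control and 10.02, 4.50 and 18.3 in CFIm25-m. Every CFIm25-m sample was under both controls, but with limma-trend the difference was not called (log2 fold change -1.88 ± 0.51, adjusted p = 0.112, limma-trend), and it passed the threshold when CFIm25-m replicate 3 was left out and in edgeR without the filter. GSX1 had 15.0 and 9.65 against 15.0, 7.20 and 1.92. CDX1 and CDX2 never passed 3 reads.

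Polycomb and Trithorax genes, which keep HOX clusters silent or active, were transcribed throughout. The 31 genes examined include CTCF, which is in neither group. All 31 passed the filter, from CBX8 (0.59 RPKM) to PHC1 (186), and 19 were lower and 12 higher in CFIm25-m. Their median log2 fold change was -0.07. The unadjusted limma-trend p was under 0.05 for 5 of the 31, against 15.1% of all tested genes. A single gene was called, 3.23% against the 1.88% of all tested genes. JARID2, a subunit that helps recruit Polycomb repressive complex 2 in embryonic stem cells, fell from 13443 and 13418 normalized counts in mock control to 10166, 9239 and 9387 in CFIm25-m (log2 fold change -0.49 ± 0.10 SE, adjusted p = 0.0354, limma-trend). Its groups were far apart relative to their spread, yet leaving out either control or CFIm25-m replicate 1 or 2 took adjusted p to 0.0794 to 0.498.

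The catalytic and core subunits of the same complex were not called. EZH2 had 1346 and 1439 normalized counts in mock control and 1571, 1313 and 1529 in CFIm25-m, SUZ12 1384 and 1408 against 1398, 1201 and 1308, and EED 431 and 420 against 497, 528 and 456. PHC1, a subunit of Polycomb repressive complex 1, had 23627 and 24076 against 21783, 22837 and 26936, and KMT2D, a Trithorax-type methyltransferase, 5589 and 5758 against 5322, 5399 and 5571. Neither was called, nor was the histone-binding protein gene RBBP7. EZH2, SUZ12 and EED were named for their place in the complex after their values were seen.

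**Figure D4:**
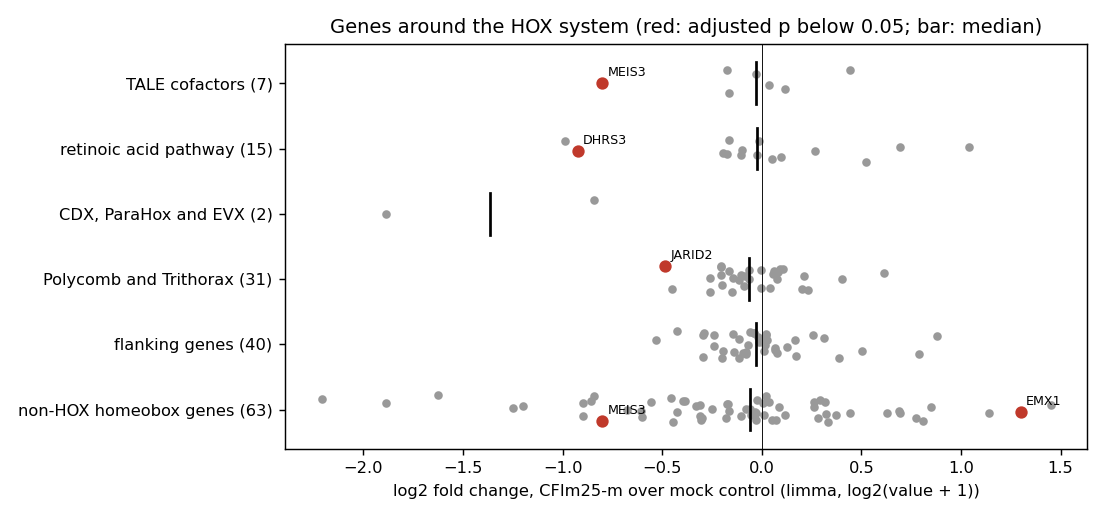
Log2 fold change of CFIm25-m over mock control (x axis, limma on log2(value + 1)) for each tested gene of 6 lists around the HOX system, with the number tested in brackets, called genes in red and a bar at the median. JARID2, DHRS3 and MEIS3 lie to the left and EMX1 to the right, and the flanking genes hold no gene called by limma-trend.

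Thus 3 of the 95 tested genes of the cofactor, retinoic acid, CDX, Polycomb and flanking lists were called by limma-trend, 3.16% against 1.88% of all tested genes, and these 3 were lower in CFIm25-m. DESeq2 called 2 more, TTLL6 and CDK5RAP3, both higher. The limma-trend count was 0 without the mean-variance trend of limma and 0 when either control or CFIm25-m replicate 1 was left out, 1 without CFIm25-m replicate 2 and 8 without CFIm25-m replicate 3. The summed level of the 6 fibroblast markers was 9315 to 9837 normalized counts in mock control and 7166 to 8326 in CFIm25-m. COL1A1 carried this difference, since COL1A2, the other one past the filter, lay the other way, at 1124 and 1107 in mock control and 1408, 1493 and 1350 in CFIm25-m. Their part in these results was not tested.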

How the data were processed

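One table of the series was used. Per the submitters' processing notes, reads were aligned to hg38 with HISAT2, counted per gene with featureCounts of Subread and analysed with DESeq2. Versions, annotation and strand setting are not given in the sources used here. The values the authors deposited are a normalized signal, read counts divided by a size factor of each library. Dividing them by the smallest positive value of a library gave whole reads for 100% of values (tolerance 0.001). The deposited gene length was used for levels per kilobase (RPKM). Columns of the authors' own comparison were not used.

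The test was limma-trend 3.58.1 (R 4.3.3) on log2(value + 1), for the 19232 genes with a value of 10 or more in at least 2 samples, with Benjamini-Hochberg adjustment at 0.05. The log2 scale understates changes of low genes. Recovered reads were also tested with edgeR 4.0.16 and with DESeq2 1.42.0. Other pseudocounts, filters and scalings were tried, as were a block on the replicate number and fits without 1 sample, and the unfiltered fits of edgeR and DESeq2 were added after seeing the data. Scripts were tested on simulated data. Intervals are exact (scipy 1.17.1). The planned tests assumed that members would pass the filter, and since none did, they were described by reads.

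Named genes were every member, NUDT21, and of each list the called genes and up to 4 of highest mean, of which 1 is not reported here. The cell type markers named, MEIS1, MEIS2, TTLL6, the genes passed over on the HOXB side, and the further genes marked so in the text fall outside this rule and were picked with their values known. The members and lists were chosen with earlier results of these data known. Sequences came from RefSeq promoters (GRCh38.p14).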

Additional observations from a re-analysis of the deposited data

How the results depend on the processing

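No HOX gene was called under any of the alternatives, of which 3 fitted the members: limma-trend, edgeR and DESeq2, each without the filter. The other settings kept a filter and so could give the members no log2 fold change. The number of called genes among the cofactor, retinoic acid, CDX, Polycomb and flanking lists was 3 and depended on the setting. It was 0 without the mean-variance trend, 5 with DESeq2 (CDK5RAP3 and TTLL6 added), 5 with DESeq2 and 7 with edgeR without a filter, and 0 to 8 when 1 library was left out. With a replicate block it was 11, and 2107 genes in all were called against 361. CFIm25-m replicate 3 has no control of the same number, so the block takes that library out of the comparison. The log2 fold changes with the block are those of the fit without CFIm25-m replicate 3 (MEIS3 -0.67 in both), so these settings are not independent. The correlations of the deviations of same-numbered samples were 0.01 and 0.02, so the numbers were taken as names. The cause of the other differences between settings was not tested. MEIS3, DHRS3, JARID2, EMX1 and NUDT21 kept their direction in 18 of 18 alternatives, and their calls held in 14, 10, 13, 14 and 15. NUDT21 lost its call without the mean-variance trend (adjusted p = 0.106, limma) and without either control (0.0618 and 0.0557). Leaving out CFIm25-m replicate 3 raised the calls over all genes to 1044, and leaving out a mock control lowered them to 66 or 71. The HOXB sum, which is that of HOXB2 alone, rested on CFIm25-m replicate 2. The HOXC difference of 0.33 normalized counts ran from -1.02 to 1.68 with 1 library left out. Depth limits the members: 3 reads of a library are 0.0642 to 0.08 RPKM for a gene of 2 kb, above each member's pooled level.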
